A study of Saccharomyces cerevisiae with 21 samples.

Results

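The pentose phosphate pathway genes of a wine yeast fermentation were followed over 15 days, the span given in the series' title, on 21 one-colour Affymetrix yeast arrays. The members were the 8 genes ZWF1, SOL3, GND1, RKI1, RPE1, TKL1, TKL2 and TAL1, chosen by name from the pathway, and all 8 were among the 5656 genes with a probe set of their own. Each gene was read on the probe set annotated to it alone, and for TKL2, which has 3 such probe sets, on the brightest. Saccharomyces cerevisiae cells were harvested at 1, 12, 24, 48, 60, 120 and 340 h, with 3 biological replicates at each time. The submitters place the main study at 24 h (0.5% ethanol), 48 h (2%), 60 h (3.5%), 120 h (7%) and 340 h (10%), and the 1 h and 12 h harvests were added for completeness. The sample labels part the groups by time of harvest alone. Over the main study ethanol rises with time, so that time and ethanol cannot be told apart. The strain, the medium and what a replicate number marks are not given in the sources used here, and the p-values measure the spread between these arrays.

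The pathway branches off glycolysis at glucose 6-phosphate. Its oxidative branch yields NADPH, the reducing power for biosynthesis and for defence against oxidants, and turns the sugar phosphate into ribulose 5-phosphate. Its non-oxidative branch then rearranges pentose phosphates reversibly into ribose 5-phosphate for nucleotides, erythrose 4-phosphate for aromatic amino acids, and intermediates that return to glycolysis. In Saccharomyces cerevisiae several steps have a main enzyme and a minor paralogue.

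The values are log2 probe set signals from RMA, a method that gives all arrays processed together nearly one distribution. A change in total mRNA per cell, or in the number of living cells, cannot be seen on such a scale. Array medians lay between 6.62 and 6.90, and the mean correlation of an array with the others of its time, across genes, lay between 0.960 and 0.991, lowest for 24 h replicate 3. Changes are given on the log2 scale with the standard error of limma's fit (n = 3 arrays a time). The words rose and fell are kept for genes with an adjusted p under 0.05 (Benjamini-Hochberg, 5656 genes). The standard errors of the members' changes ran from 0.14 to 0.26, and the number of arrays limits this precision. The comparisons with 24 h share the 24 h arrays and are not independent of each other. Levels are compared within a gene only, because signals of different probe sets are not on a common scale. As a check of the scaling, each array was also centred on 5 reference genes (ALG9, TAF10, TFC1, UBC6 and ACT1) in either of 2 ways. Level centring subtracts the median of their levels. By time means this was the level of ALG9 at 1 h, of TAF10 at 24 h and of UBC6 at all other times. Its shifts in every comparison with 1 h or 24 h therefore also hold a difference between probe sets. Change centring, which was added after the results of level centring had been seen, first sets each reference gene to its own mean. They raised every change at 340 h against 24 h by 0.70 and 0.29. Each call of the 8 genes that either one ended is named. The reference genes were not all steady. TAF10 (-1.60) and ALG9 themselves fell at 340 h against 24 h, and at 12 h against 1 h 2 of the 5 rose and 1 fell.

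Over the fermentation the pathway did not move as a block. ZWF1, the entry enzyme, and the minor transketolase TKL2 rose from 24 h to 340 h, while SOL3, GND1, RKI1, RPE1, TKL1 and TAL1 fell. The falls of SOL3 and RPE1 did not pass under either reference centring. All 8 genes passed the moderated F test of limma for any change over the 7 times, as did 89.2% of all genes, so this count says little about the pathway. The widest range of time means was that of RKI1, 4.01 log2 units or 16.1-fold, at the 97.0 percentile of all genes, and the narrowest that of RPE1, 1.12 log2 units or 2.17-fold, at the 33.9 percentile. The median over all genes was 1.46 log2 units.

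**Figure D1:**
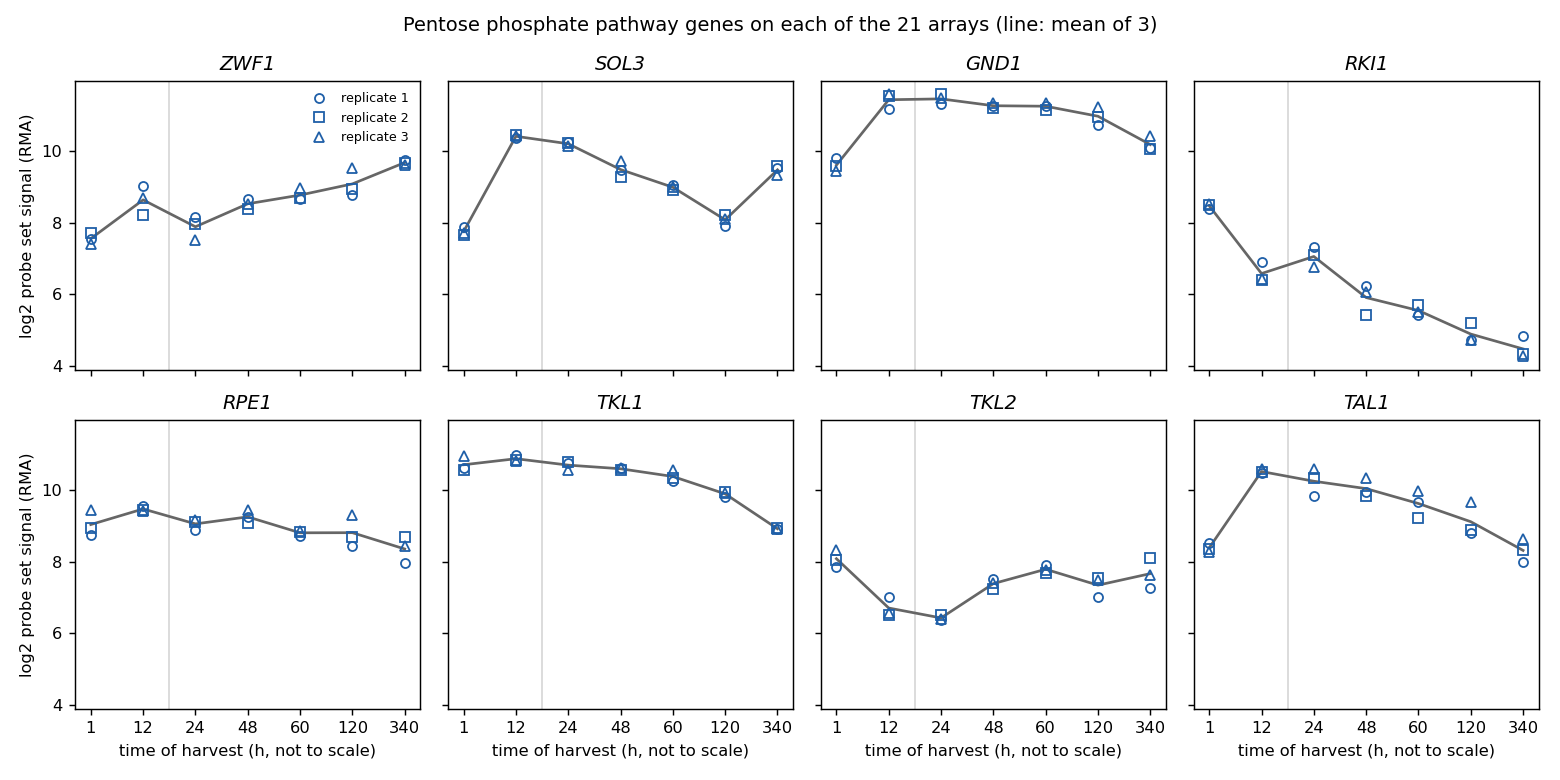
Log2 signal (vertical axis) of each of the 8 genes on all 21 arrays against the time of harvest in hours (horizontal axis, times evenly spaced and not to scale). Open symbols are the arrays by replicate number, the line joins the means of 3 arrays, and the grey upright line parts 1 h and 12 h from the main study. ZWF1 climbed from a mean of 7.89 at 24 h to 9.68 at 340 h, RKI1 went from 8.47 at 1 h to 4.47 at 340 h, and SOL3 turned upward after 120 h. Levels of different genes are not comparable.

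The comparison of 12 h with 1 h covers the first hours after the start. ZWF1, SOL3, GND1 and TAL1 rose and RKI1 and TKL2 fell, so 6 of the 8 genes passed, where 60% of all genes passed (26% higher and 33.9% lower). The 12 h arrays lay wholly above or below those of 1 h for 6 of the 8 genes and for 66.5% of all genes. The largest of these changes was the rise of SOL3, 6.35-fold, followed by that of TAL1, 4.40-fold. The median change of the 8 genes was 0.76, against -0.11 over all genes. From 12 h to 24 h none of the 8 genes passed limma's test, where 2.07% of all genes passed (0.796% higher and 1.27% lower). The arrays of these times did not overlap for 5 of the 8 genes and for 21.8% of all genes. Only ZWF1 (-0.75 ± 0.21, adjusted p = 0.0654) and RKI1 (0.48 ± 0.22, adjusted p = 0.251) had an unadjusted p under 0.05. The share of all genes at that threshold was not counted. The change of ZWF1 passed without 12 h replicate 2 (-0.97, adjusted p = 0.0368) and with repeated quantile normalization (-0.75, adjusted p = 0.0486).

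In the main study the members that passed against 24 h went from 4 at 48 h (2 rose and 2 fell) and 4 at 60 h (2 and 2) to 7 at 120 h (2 and 5) and 8 at 340 h (2 and 6). Over all genes the share that passed was 21.2%, 43.4%, 53.2% and 63.8%. Higher calls made up 12.8%, 22.6%, 26.6% and 27.8% of all genes, and lower calls 8.42%, 20.8%, 26.6% and 36%. The median change of the 8 genes was -0.15, -0.28, -0.64 and -1.0, beside medians over all genes of -0.02, 0.01, 0.01 and -0.13. Under level centring the members that passed at 120 h were 4 (2 and 2) and those at 340 h were 6 (2 and 4). Of the 5656 genes, 3524 and 3833 passed under it at these times, 81.9% and 77.1% of them higher. Level centring also turned the sign of changes that had not passed. At 48 h these became 0.091 (GND1), 0.18 (TKL1) and 0.075 (TAL1). At 60 h GND1 became 0.015, and at 120 h RPE1 became 0.29. The 3 later arrays all lay on one side of the 24 h arrays for 4, 6, 7 and 8 of the 8 genes, and for 39.2%, 52.4%, 56.5% and 64.2% of all genes.

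**Figure D2:**
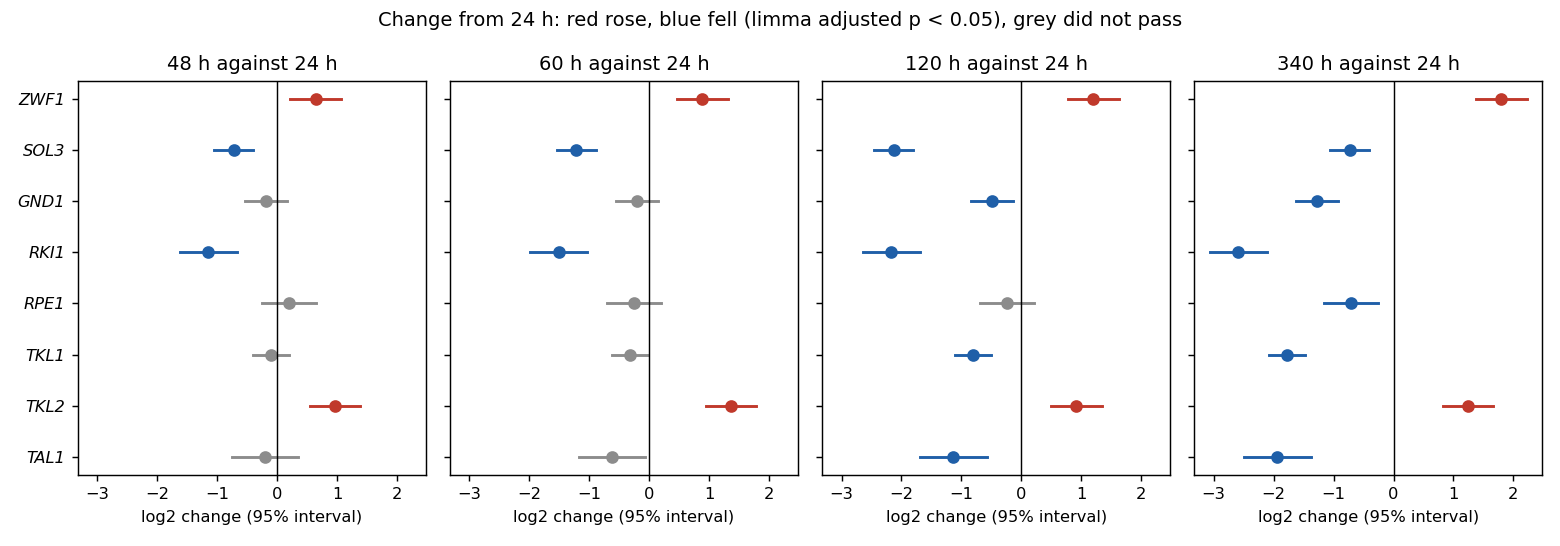
Log2 change (horizontal axis) of the 8 genes at 48, 60, 120 and 340 h against 24 h, one panel per time, with 95% intervals from limma as bars. Red points rose, blue points fell and grey points did not pass. ZWF1 and TKL2 are red in all 4 panels, while the blue points increase from 2 at 48 h to 6 at 340 h.

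ZWF1 encodes glucose-6-phosphate dehydrogenase, which makes the first NADPH of the oxidative branch and sets the entry into it. Its arrays read 7.55, 7.70 and 7.41 at 1 h and 9.02, 8.21 and 8.68 at 12 h. In the main study they read 8.17, 7.96 and 7.52 at 24 h, 8.67, 8.39 and 8.52 at 48 h, 8.66, 8.69 and 8.96 at 60 h, 8.78, 8.94 and 9.53 at 120 h, and 9.75, 9.68 and 9.61 at 340 h. Every array from 48 h on lay above every 24 h array, and the 340 h arrays lay above all others.

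ZWF1 rose at 340 h by 1.80 ± 0.20 against 24 h (3.47-fold, limma adjusted p = 4.68e-07), which placed it at the 93.2 percentile of the changes of all genes. The rise was already 1.20 ± 0.20 at 120 h (adjusted p = 7.34e-05) and 0.89 ± 0.20 at 60 h (adjusted p = 0.00177). The smaller rise at 48 h, 0.64 ± 0.20 (adjusted p = 0.0294), was not stable. It did not pass without 24 h replicate 2 (adjusted p = 0.0524), 24 h replicate 3 (0.46, adjusted p = 0.115), 48 h replicate 1 (adjusted p = 0.114) or 48 h replicate 3 (adjusted p = 0.0669), nor under change centring (0.61, adjusted p = 0.0720). The last step, from 120 h to 340 h, was a rise of 0.60 ± 0.20 (adjusted p = 0.0242). It did not pass without 120 h replicate 1 (0.44, adjusted p = 0.119), 120 h replicate 2 (adjusted p = 0.0859), 340 h replicate 1 (adjusted p = 0.0703) or 340 h replicate 2 (adjusted p = 0.0501). In the order of its time means, 1 h stood lowest, then 24, 48, 12, 60, 120 and 340 h. Only the steps from 24 h to 48 h and from 120 h to 340 h in that order were between times whose arrays did not overlap.

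SOL3 encodes the main 6-phosphogluconolactonase, which opens the lactone that ZWF1 makes. Its arrays read 7.88, 7.67 and 7.70 at 1 h, 10.37, 10.45 and 10.43 at 12 h and 10.25, 10.23 and 10.15 at 24 h. They then read 9.46, 9.27 and 9.72 at 48 h, 9.06, 8.93 and 8.99 at 60 h, 7.92, 8.22 and 8.10 at 120 h, and 9.52, 9.58 and 9.33 at 340 h. The gene thus had a low start, a high plateau, a stepwise fall and a late return, and of the neighbours in the order of its means only 340 h and 48 h overlapped.

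The rise of SOL3 by 2.67 ± 0.15 from 1 h to 12 h (limma adjusted p = 7.15e-13) was the largest change of any member between the times compared. Against 24 h it fell by 0.72 at 48 h (SE 0.16), by 1.22 at 60 h and by 2.13 at 120 h (adjusted p = 0.00262, 6.48e-06 and 5.49e-09). Under level centring the change at 48 h did not pass (-0.44, adjusted p = 0.154). At 120 h this was a 4.37-fold fall, at the 2.12 percentile of all genes. From 120 h to 340 h SOL3 rose by 1.40 ± 0.16 (2.63-fold, adjusted p = 2.63e-06), and at 340 h it was still 0.73 below 24 h (-0.73 ± 0.16, adjusted p = 0.00048). That last difference did not pass under level centring (-0.03, adjusted p = 0.907) or change centring (-0.44, adjusted p = 0.0520).

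GND1 encodes the main 6-phosphogluconate dehydrogenase, the second NADPH-forming step. Its arrays read 9.80, 9.58 and 9.45 at 1 h, 11.18, 11.54 and 11.60 at 12 h, 11.31, 11.60 and 11.49 at 24 h, 10.73, 10.96 and 11.24 at 120 h and 10.08, 10.05 and 10.43 at 340 h. At 48 h and 60 h all 6 arrays lay between 11.15 and 11.36, within reach of the 24 h arrays. GND1 thus held a plateau from 12 h to 60 h, where neighbouring times overlapped, between lower levels at both ends.

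GND1 rose by 1.83 ± 0.17 from 1 h to 12 h (3.55-fold, limma adjusted p = 4.49e-09). Against 24 h it changed by -0.19 ± 0.17 at 48 h and -0.21 ± 0.17 at 60 h (adjusted p = 0.447 and 0.339), with 95% intervals from -0.54 to 0.16 and from -0.56 to 0.14. It fell at 120 h (-0.49 ± 0.17, adjusted p = 0.0205) and at 340 h (-1.28 ± 0.17, 2.43-fold, adjusted p = 2.74e-06). The fall at 120 h did not pass without 24 h replicate 2 (adjusted p = 0.0765), 120 h replicate 1 (-0.36, adjusted p = 0.104) or 120 h replicate 2 (adjusted p = 0.0531), nor under change centring (-0.32, adjusted p = 0.208), and level centring turned it to 0.045 (adjusted p = 0.872). From 120 h to 340 h the fall was 0.79 on the log2 scale (SE 0.17, adjusted p = 0.00105).

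The 3 oxidative genes therefore had different late courses. At 340 h against 120 h ZWF1 and SOL3 rose while GND1 fell. Across the 21 arrays the correlation of ZWF1 with SOL3 was 0.12, of ZWF1 with GND1 0.09 and of SOL3 with GND1 0.65. These correlations describe arrays that share their times and are no test.

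RKI1 encodes ribose-5-phosphate ketol-isomerase, which makes ribose 5-phosphate from ribulose 5-phosphate. Its arrays read 8.40, 8.49 and 8.53 at 1 h, 6.91, 6.39 and 6.43 at 12 h and 7.31, 7.10 and 6.75 at 24 h. They went on to 6.23, 5.42 and 6.07 at 48 h, 5.42, 5.70 and 5.51 at 60 h, 4.73, 5.19 and 4.73 at 120 h and 4.82, 4.33 and 4.26 at 340 h. The 1 h arrays lay above all later ones, and all arrays from 48 h on lay below all those of 24 h.

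RKI1 fell by 1.90 from 1 h to 12 h (SE 0.22, 3.72-fold, limma adjusted p = 1.11e-07). Against 24 h it fell at 48 h (-1.15 ± 0.23, adjusted p = 0.00122), 60 h (-1.51 ± 0.23, adjusted p = 3.56e-05), 120 h (-2.17 ± 0.23, adjusted p = 3.27e-07) and 340 h (-2.59 ± 0.23, 6.01-fold, adjusted p = 2.03e-08). Its change was at the 1.79 percentile of all genes at 48 h and at the 1.77 percentile at 340 h. No single step between successive main times after 48 h passed. The largest of them was that from 60 h to 120 h (-0.66 ± 0.23, adjusted p = 0.0721), where the arrays did not overlap. The signal at 340 h stood at the 12.4 percentile of the genes of its arrays, so these late values come from a dim probe set.

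RPE1 encodes ribulose-phosphate 3-epimerase, which makes the xylulose 5-phosphate that transketolase uses. Its arrays read 8.74, 8.95 and 9.44 at 1 h, 9.55, 9.46 and 9.42 at 12 h, 8.90, 9.11 and 9.17 at 24 h, and 7.97, 8.68 and 8.43 at 340 h. At 48, 60 and 120 h they ranged from 8.45 to 9.44. Only the arrays of 340 h were parted from the next time in the order of means, 60 h, and all other neighbours overlapped.

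The one comparison with 24 h that RPE1 passed was 340 h (-0.70 ± 0.21, 1.63-fold, limma adjusted p = 0.00785). It did not pass without 340 h replicate 1 (-0.51, adjusted p = 0.0563), nor under change centring (-0.41, adjusted p = 0.160), and under level centring almost nothing of it was left (adjusted p = 0.993). At 48, 60 and 120 h the changes were 0.20, -0.25 and -0.25, each ± 0.21, and the 95% interval at 120 h ran from -0.70 to 0.20. From 1 h to 12 h RPE1 changed by 0.44 ± 0.21 (adjusted p = 0.0811). That change passed with the arrays centred on their medians (0.54, adjusted p = 0.0453), under level centring (0.67, adjusted p = 0.0279), with repeated quantile normalization (0.55, adjusted p = 0.0259) and without 1 h replicate 3 (0.63, adjusted p = 0.0187). The step from 120 h to 340 h (-0.46 ± 0.21, adjusted p = 0.0943) passed without 120 h replicate 1 (-0.64, adjusted p = 0.0329) and without 340 h replicate 2 (-0.62, adjusted p = 0.0413). For that pair of times the deviations of arrays of one replicate number from their time means correlated by 0.15 to 0.49. With the replicate block the step passed narrowly (-0.46, adjusted p = 0.0486), but what the numbers mark is not given.

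TKL1 encodes the main transketolase, which moves ketol units between sugar phosphates and is needed at both ends of the non-oxidative branch. Its arrays read 10.61, 10.56 and 10.97 at 1 h, 10.98, 10.85 and 10.83 at 12 h, and 10.76, 10.79 and 10.57 at 24 h. They read 10.62, 10.57 and 10.63 at 48 h, 10.26, 10.34 and 10.56 at 60 h, 9.80, 9.97 and 9.94 at 120 h, and 8.91, 8.94 and 8.93 at 340 h. From 1 h to 48 h neighbours in the order of means overlapped, and from 48 h on each later time lay wholly below the one before.

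Against 24 h TKL1 fell at 120 h (-0.80 ± 0.14, 1.75-fold, limma adjusted p = 0.000122) and at 340 h (-1.78 ± 0.14, 3.44-fold, adjusted p = 7.34e-09). Under level centring the fall at 120 h did not pass (-0.27, adjusted p = 0.258). The change at 60 h was -0.32 ± 0.14 (adjusted p = 0.0802). It passed without 24 h replicate 3 (-0.39, adjusted p = 0.0416) and with repeated quantile normalization (-0.38, adjusted p = 0.0338). The step from 60 h to 120 h passed (-0.49 ± 0.14, adjusted p = 0.0372), but not when any 1 of its 6 arrays was left out: adjusted p was 0.0571, 0.0839 and 0.138 without 60 h replicates 1, 2 and 3, and 0.107, 0.0763 and 0.0669 without those of 120 h. Nor did it pass under level centring (-0.18, adjusted p = 0.565) or change centring (-0.26, adjusted p = 0.370). The step from 120 h to 340 h was larger (-0.98 ± 0.14, 1.97-fold, adjusted p = 4.23e-05).

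TAL1 encodes the main transaldolase, which links sedoheptulose 7-phosphate to the erythrose 4-phosphate and fructose 6-phosphate that leave the pathway. Its arrays read 8.53, 8.35 and 8.29 at 1 h, 10.49, 10.51 and 10.59 at 12 h and 9.84, 10.34 and 10.59 at 24 h. They read 9.95, 9.86 and 10.34 at 48 h, 9.68, 9.23 and 9.99 at 60 h, 8.80, 8.90 and 9.67 at 120 h and 7.99, 8.33 and 8.65 at 340 h. The 340 h arrays overlapped those of 1 h, so that the gene ended where it began, within the spread, and between 12 h and 120 h neighbours in the order of means overlapped throughout.

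TAL1 rose by 2.14 ± 0.24 from 1 h to 12 h (4.40-fold, limma adjusted p = 8.31e-08). Against 24 h it fell at 120 h (-1.13 ± 0.26, 2.19-fold, adjusted p = 0.00143) and 340 h (-1.94 ± 0.26, 3.83-fold, adjusted p = 4.38e-06). Under level centring the fall at 120 h did not pass (-0.60, adjusted p = 0.0968). The change at 60 h was -0.62 ± 0.26 (adjusted p = 0.0634). It passed without 24 h replicate 1 (-0.83, adjusted p = 0.0241), without 60 h replicate 3 (-0.80, adjusted p = 0.0369), with repeated quantile normalization (-0.72, adjusted p = 0.0252) and with all 21 arrays in the fit (adjusted p = 0.0382). The step from 120 h to 340 h (-0.80 ± 0.26, adjusted p = 0.0205) did not pass without 120 h replicate 3 (-0.53, adjusted p = 0.118) or 340 h replicate 1 (-0.64, adjusted p = 0.0999). It also missed the threshold with the arrays centred on their medians (-0.69, adjusted p = 0.0677), under level centring (-0.64, adjusted p = 0.124) and under change centring (-0.68, adjusted p = 0.0902). TAL1 and GND1 had the highest correlation of the 28 pairs of members over the 21 arrays, 0.90.

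TKL2 encodes the minor transketolase, and its course was unlike that of TKL1. Its arrays read 7.86, 8.06 and 8.34 at 1 h, 7.02, 6.53 and 6.58 at 12 h and 6.38, 6.52 and 6.40 at 24 h. They read 7.51, 7.25 and 7.41 at 48 h, 7.92, 7.69 and 7.76 at 60 h, 7.01, 7.54 and 7.49 at 120 h and 7.26, 8.12 and 7.63 at 340 h. Every later array lay above every 24 h array. In the order of means only the lowest step, from 24 h to 12 h, was between times that did not overlap.

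TKL2 fell from 1 h to 12 h (-1.38 ± 0.20, 2.60-fold, limma adjusted p = 3.95e-06). Against 24 h it rose at 48 h (0.96 ± 0.20, adjusted p = 0.00199), 60 h (1.36 ± 0.20, 2.57-fold, adjusted p = 3.01e-05), 120 h (0.92 ± 0.20, adjusted p = 0.000841) and 340 h (1.24 ± 0.20, 2.36-fold, adjusted p = 3.02e-05). Its 3 probe sets gave the same direction against 24 h at all 4 times, from 0.87 to 1.24 at 340 h and from 1.36 to 2.46 at 60 h. They parted over the last step. From 120 h to 340 h the brightest probe set changed by 0.32 ± 0.20, and the others by -0.16 ± 0.19 and -0.71 ± 0.27, and none passed over all probe sets (adjusted p = 0.249, 0.560 and 0.0611). Without 340 h replicate 1 the brightest passed narrowly (0.53, adjusted p = 0.0496). The late course of TKL2 is therefore not settled by these arrays. With the mean of the 3 probe sets, the rise from 48 h to 60 h (0.64, adjusted p = 0.0491) and the fall from 60 h to 120 h (-0.66, adjusted p = 0.0370) passed, where the brightest alone gave 0.40 ± 0.20 (adjusted p = 0.240) and -0.45 ± 0.20 (adjusted p = 0.175).

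Between successive main times fewer changes passed. From 48 h to 60 h none of the 8 genes passed limma's test, where 8.08% of all genes did (3.48% higher and 4.6% lower). SOL3 alone (-0.50 ± 0.16, adjusted p = 0.0579) had an unadjusted p under 0.05, a threshold at which all genes were not counted. SOL3 passed with all 21 arrays in the fit (adjusted p = 0.0372). From 60 h to 120 h SOL3 (-0.91 ± 0.16, adjusted p = 0.00108) and TKL1 fell, 2 of 8 where 9.55% of all genes passed (4.6% higher and 4.95% lower). Neither passed under level centring, where SOL3 was at -0.60 (adjusted p = 0.0694). From 120 h to 340 h ZWF1 and SOL3 rose and GND1, TKL1 and TAL1 fell, 5 of 8 where 42.4% of all genes passed (15.9% higher and 26.6% lower). The arrays did not overlap for 4, 4 and 5 of the 8 genes over these 3 steps, and for 36.5%, 30.5% and 51.6% of all genes.

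Beside SOL3, GND1, TKL1 and TAL1 the genome holds the paralogues SOL4, GND2, TKL2 and NQM1, which encode minor forms of the same enzymes. SOL4, GND2 and NQM1 are no members of the 8 and were read for this comparison. SOL4 read 6.55, 5.98 and 5.84 at 24 h, 8.86, 8.81 and 8.80 at 60 h and 6.89, 7.09 and 7.35 at 340 h. GND2 read 6.80, 6.70 and 6.41 at 24 h, 8.90, 9.31 and 9.12 at 60 h and 8.15, 7.57 and 7.98 at 340 h. NQM1 read 7.19, 7.18 and 7.06 at 24 h, 9.48, 9.24 and 8.97 at 60 h and 7.98, 8.07 and 8.03 at 340 h. All 3 were lowest at 24 h and highest at 60 h, and their 340 h arrays lay above those of 24 h and below those of 60 h. At 1 h their means were 7.30, 7.98 and 8.13, beside 7.11, 7.90 and 8.03 at 340 h, so 24 h was a low point between higher levels.

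Each of the 3 rose against 24 h at 48, 60, 120 and 340 h. At 60 h SOL4 rose by 2.70 ± 0.27 (6.50-fold, limma adjusted p = 4.32e-07), GND2 by 2.47 ± 0.19 (5.56-fold, adjusted p = 1.81e-08) and NQM1 by 2.09 ± 0.17 (4.25-fold, adjusted p = 2.54e-08). These changes stood at the 99.3, 99.0 and 98.0 percentile of all genes, and that of TKL2 at the 94.3 percentile. After 60 h GND2 (-0.85 ± 0.19, adjusted p = 0.00832) and NQM1 (-0.91 ± 0.17, adjusted p = 0.00187) fell to 120 h, and SOL4 fell from 120 h to 340 h (-1.44 ± 0.27, adjusted p = 0.000444). The fall of GND2 did not pass under level centring (-0.54, adjusted p = 0.116) or change centring (-0.62, adjusted p = 0.0728).

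The difference between paralogue and main gene was taken within each array, where any scaling of a whole array cancels. Relative to 24 h, SOL4 minus SOL3 was higher by 2.87 ± 0.48, 3.92 ± 0.20, 4.56 ± 0.28 and 1.72 ± 0.28 (± SE from the 3 and 3 arrays) at 48, 60, 120 and 340 h. GND2 minus GND1 was higher by 1.43 ± 0.20, 2.68 ± 0.23, 2.11 ± 0.17 and 2.55 ± 0.24 at the same times. TKL2 minus TKL1 was higher by 1.06 ± 0.09, 1.68 ± 0.15, 1.72 ± 0.13 and 3.02 ± 0.25. NQM1 minus TAL1 was higher by 1.69 ± 0.28, 2.71 ± 0.40, 2.31 ± 0.47 and 2.82 ± 0.31. In all 16 combinations of pair and time every later array lay above every 24 h array. Each gave an exact permutation p of 0.1, two-sided, the smallest that 3 against 3 arrays allow, and 0.1 again after adjustment over the 16 tests, so that no single one can pass. The 16 combinations share the 24 h arrays, where each paralogue had its lowest mean. The share of other gene pairs without overlap was not counted. For single genes, in either direction, it was 39.2%, 52.4%, 56.5% and 64.2% at 48, 60, 120 and 340 h against 24 h. A higher difference than at 24 h was not confined to later times. At 1 h SOL4, GND2 and NQM1 stood above their 24 h means. SOL3, GND1 and TAL1 then stood at 7.75, 9.61 and 8.39, below their 24 h means of 10.21, 11.46 and 10.26. The differences at 1 h and 12 h were not tested. Cross-hybridization between paralogues was not tested.

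**Figure D3:**
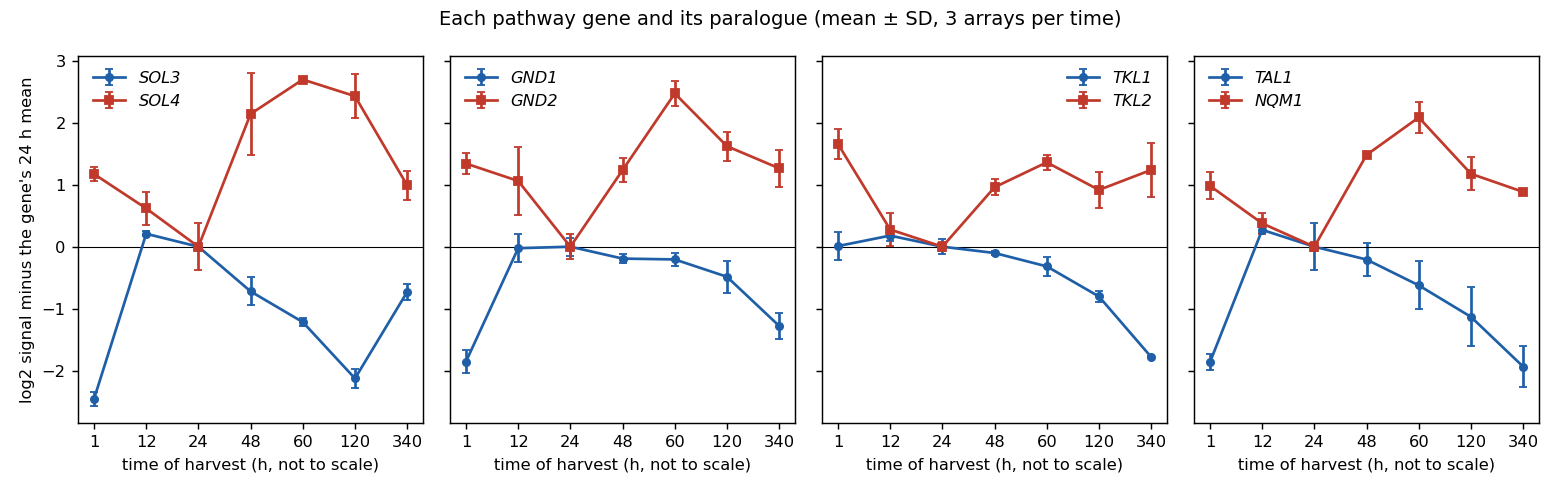
Log2 signal minus the gene's own 24 h mean (vertical axis, mean ± SD of 3 arrays) against time of harvest in hours (evenly spaced, not to scale) for the main gene (blue circles) and its minor paralogue (red squares) of 4 steps. From 24 h on the red and blue courses part in every panel, and SOL4, GND2 and NQM1 peak at 60 h with 2.70, 2.47 and 2.09. At 1 h too the red squares lie above the blue circles.

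Genes around the pathway were read from lists chosen by function. Their counts stand beside the shares of all genes given above. These were 22.6% higher and 20.8% lower at 60 h, 26.6% and 26.6% at 120 h and 27.8% and 36% at 340 h against 24 h. At 12 h against 1 h they were 26% and 33.9%. Counts under the reference centrings stand beside other shares. Level centring called 2332 of the 5656 genes at 60 h (72.2% of them higher) and 3833 at 340 h (77.1% higher). Change centring called 2333 (46.8% higher) and 3480 (57.8% higher). Of the 5 genes for phosphoribosyl pyrophosphate synthetase, PRS1 to PRS5, which take ribose 5-phosphate into nucleotides, 4 fell from 1 h to 12 h and 4 fell at 340 h against 24 h, and none rose. At 340 h the list's median change was -1.20, and PRS4 (-1.78), PRS3 (-1.42), PRS5 (-1.20) and PRS1 (-0.96) fell. PRS2 changed by -0.14. Under level centring PRS1 did not pass (-0.26, adjusted p = 0.341). Of the 4 genes at the start of the aromatic pathway, which takes erythrose 4-phosphate, 3 fell at 340 h with a list median of -1.45, among them ARO4 (-2.94) and ARO2 (-1.84), while ARO3 changed by -0.18. ARO1 (-1.06) did not pass under level centring (-0.36, adjusted p = 0.135). Their medians lay below that of all genes (-0.13).

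At the branch point with glycolysis, 3 of 10 genes rose and 3 fell at 340 h against 24 h, close to the shares of all genes. The hexokinase HXK2 fell (-3.94), and so did phosphoglucose isomerase PGI1 (-0.71), which draws on the same glucose 6-phosphate, and the phosphoglucomutase PGM1 (-1.67). The hexokinase HXK1 (1.00), the glucokinase GLK1 (1.67) and the phosphoglucomutase PGM2 (1.33) rose. PGI1 did not pass under level centring (-0.01, adjusted p = 0.973) or change centring (-0.42, adjusted p = 0.0824). The glycolytic genes PFK1, PFK2, FBA1 and TPI1 did not pass at any main time against 24 h, with changes from -0.41 to 0.17. At 340 h level centring gave 5 rises and 2 falls among the 10, where 77.1% of its 3833 calls over all genes were higher. From 1 h to 12 h, 7 of the 10 rose and none fell, and under change centring PFK2 (0.30, adjusted p = 0.188) and TPI1 (0.16, adjusted p = 0.483) did not pass.

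Of 8 other genes for NADPH or NADP+ supply, 4 rose at 120 h and none fell, and at 340 h 2 rose and 2 fell. The cytosolic NADP-specific isocitrate dehydrogenase IDP2 rose at 60 h (1.28), 120 h (1.91) and 340 h (1.13). The mitochondrial IDP1 fell at 340 h (-0.80), a call that neither level centring (-0.10, adjusted p = 0.785) nor change centring (-0.51, adjusted p = 0.141) kept. The other fall at 340 h, that of YEF1 (-0.60), did not pass under change centring (-0.31, adjusted p = 0.186) and turned to 0.099 under level centring (adjusted p = 0.693). Level centring thus gave 5 rises and 0 falls among the 8 genes at 340 h, and change centring 4 and 0. ALD6, the main cytosolic acetaldehyde dehydrogenase and another source of NADPH, changed by 0.51 at 60 h and -0.04 at 340 h and did not pass at any main time against 24 h. Of 15 genes whose enzymes use NADPH, 8 rose and 3 fell at 120 h, and 5 rose and 5 fell at 340 h. At 340 h level centring gave 9 rises and 2 falls and change centring 8 and 5. Of all genes called then, 77.1% of 3833 were higher under level centring and 57.8% of 3480 under change centring. GLT1 and CBR1, listed with these genes at first, were left out of the counts after their values were seen, because their enzymes use NADH. FAS1 and FAS2 are among the rises at 120 h, and their several probe sets disagreed there in direction. The NADP-dependent glutamate dehydrogenase GDH1 fell (-1.59) while its paralogue GDH3 rose (1.76) at 340 h.

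Of 7 genes measured of the list of other pentose and sedoheptulose steps, 4 rose and 1 fell at 60 h, and 1 rose and 2 fell at 340 h. The 7 include SOL1 and SOL2, which are not enzymes of such steps and were kept in the counts. The 1 rise at 340 h was that of SOL2, so no gene of those steps rose then. Level centring gave 5 rises and 0 falls at 60 h and 5 and 1 at 340 h, and change centring 4 and 1 and then 1 and 1. Of all genes called, 72.2% and 77.1% were higher under level centring, and 46.8% and 57.8% under change centring. SOR1 had no probe set of its own here. SHB17, the sedoheptulose bisphosphatase that also feeds the non-oxidative branch, fell at 60 h (-0.61) and 340 h (-1.28), the first of which did not pass under level centring (-0.39, adjusted p = 0.175). The ribokinase RBK1 fell at 340 h (-0.70). The call of RBK1 was lost under level centring (adjusted p = 0.988) and change centring (-0.41, adjusted p = 0.0647). GRE3, an aldose reductase, and XYL2, a xylitol dehydrogenase, rose at 60 h (1.98 and 1.17), and neither passed at 340 h (0.18 and 0.04). SOL2, a homologue of SOL3 known for a role in tRNA function, rose at 340 h (1.08). Of 7 regulators, 2 rose and 1 fell at 60 h, 3 rose and 1 fell at 120 h, and 4 rose and 0 fell at 340 h. Among them STB5, which activates pathway genes under oxidative stress, rose at 60 h (0.87) and 120 h (1.64). It fell from 120 h to 340 h (-1.46). Its 24 h arrays ranged from 4.27 to 5.74 and overlapped those of 60 h, the lowest of which read 5.53. At 24 h its mean signal stood below the 25 percentile of the genes of its arrays, so the probe set was dim. YAP1, a regulator of the oxidative stress response, was among the 4 that rose at 340 h (1.33).

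**Figure D4:**
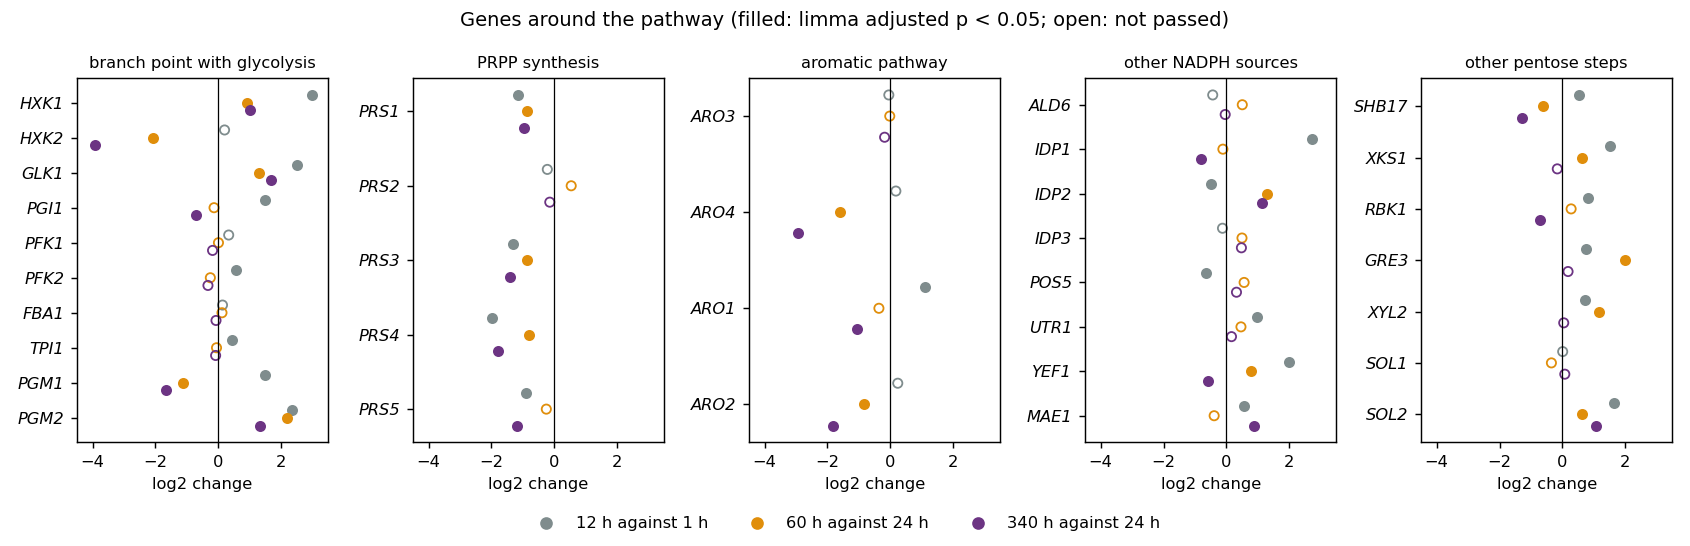
Log2 changes (horizontal axis) of the genes of 5 lists around the pathway for 12 h against 1 h (grey), 60 h against 24 h (orange) and 340 h against 24 h (purple). Filled points passed limma's test and open points did not. At 340 h the passed points of the lists of phosphoribosyl pyrophosphate synthesis (PRS4 at -1.78) and the aromatic pathway (ARO4 at -2.94) all lie to the left of 0.

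By correlation over the 21 arrays, the gene most like ZWF1 was KIN1 (0.94), and those most like SOL3 were SPC29 (0.94) and MET3 (0.93). GND1 was most like PDB1 (0.97), CAP1 and YPR1 (both 0.96), and TAL1 most like YPR1 and HMF1 (both 0.96). RKI1 was most like RIX1, UTP8 and NEW1 (all 0.98), and TKL1 most like RPS0B (0.98), SES1 and ARC1 (both 0.97). For RPE1 the highest value was 0.89, with SRB2, and for TKL2 it was 0.89, with NDE2. No other member was among the 3 genes most like any member. Among the members themselves, ZWF1 ran against RKI1 (-0.87) and TKL1 (-0.75), and TKL2 against SOL3 (-0.71), GND1 (-0.68) and TAL1 (-0.68). The 21 points are 7 times of 3 arrays, and these values are descriptions of shared courses.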

How the data were processed

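Total RNA of 21 yeast samples was measured on one-colour Affymetrix arrays. The deposited values are log2 probe set signals, made with RMA in the affy package per the submitters' processing notes. Versions, parameters and the arrays normalized together are not given in the sources used here. Of 9335 probe sets, 60 controls, 2443 with no gene and 328 with several genes in the annotation supplied were left out. For the remaining 6504, the probe set with the highest mean over the 21 arrays stood for its gene, which gave 5656 genes. Symbols were updated through gene IDs to RefSeq names.

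A mean per time was fitted in limma 3.58.1 (R 4.3.3, eBayes, two-sided, Benjamini-Hochberg over 5656 genes, threshold 0.05), with the 15 arrays of 24 h to 340 h, or all 21 where 1 h or 12 h is compared and for the F test. Paralogue differences were tested by exact permutation (scipy 1.17.1). The text names all 8 members, genes of lists chosen by function, and up to 3 genes most like each member. Members and lists were chosen with earlier results of these data known. Replicate numbers pair the arrays only for 120 h against 60 h (lowest correlation of deviations 0.16) and 340 h against 120 h (0.15). The fits were tested on simulated data. Alternatives were centring on array medians or on 5 reference genes, repeated quantile normalization, a filter on dim genes, the replicate block, another variance model, other arrays in the fit, the mean of all probe sets and each array left out. A second form of reference centring was added after the planned one had been run and seen. Promoter and protein sequences were not analysed here.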

Additional observations from a re-analysis of the deposited data

How the results depend on the processing

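Of 1080 recomputed changes of the 8 members, 1006 kept their direction and their side of the threshold, 35 no longer passed, 21 newly passed and 18 turned sign. The dim filter, replicate block, variance model and other arrays in the fit cannot turn a sign, so 1006 is no measure of stability. Of 72 each, level centring kept 55, the dim filter all. Level centring was listed and run first. Its shifts did not match the reference genes' own median change (-0.32 at 340 h against 24 h). By time means the middle level was that of TAF10 at 24 h (8.67) and of UBC6 at 120 h (8.08) and 340 h (7.91). Those shifts thus hold a difference between probe sets. Change centring was therefore added with those results seen, so neither form is an independent check. Of the changes that turned sign, only that of GND1 at 120 h against 24 h had passed.

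Level centring turned GND1 to 0.091 (48 h against 24 h), 0.015 (60 h against 24 h), 0.045 (120 h against 24 h), 0.030 (120 h against 60 h) and -0.17 (24 h against 12 h), TKL1 to 0.18 and TAL1 to 0.075 (48 h against 24 h), and RPE1 to 0.29 (120 h against 24 h). Change centring turned TKL1 to -0.10 (12 h against 1 h). GND1 also turned at 60 h against 48 h, to 0.032 with repeated quantile normalization, 0.029 without 48 h replicate 3 and 0.042 without 60 h replicate 2 (range over arrays left out -0.060 to 0.042). At 24 h against 12 h it turned to -0.020 with array-median centring, -0.10 without 12 h replicate 1 and -0.041 without 24 h replicate 2. RPE1 at 120 h against 60 h turned to -0.035 without 60 h replicate 1 and -0.24 without 120 h replicate 3 (range over arrays left out -0.24 to 0.19), and TKL2 at 340 h against 120 h to -0.18 with the mean of its probe sets.

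The number of members that passed went from 7 to 4 at 120 h against 24 h under level centring. From 2 at 120 h against 60 h it went to 0 under level centring and to 1 under change centring or any array left out. At 60 h against 48 h it went from 0 to 1 with the mean of all probe sets (TKL2) and to 1 with all 21 arrays (SOL3). At 24 h against 12 h it went from 0 to 1 with repeated quantile normalization and ranged from 0 to 1 over arrays left out. The replicate block ended no call of a member and let 3 pass, TAL1 at 60 h against 24 h (adjusted p = 0.00765), RPE1 at 12 h against 1 h (adjusted p = 0.0464) and RPE1 at 340 h against 120 h. Without overlap stayed all 16 paralogue differences with the mean of the TKL2 probe sets and with each array left out (1.01 to 4.75), alternatives chosen after the data were seen.

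The median change of all genes shifted under level centring by 0.28, 0.22, 0.53 and 0.70 (48, 60, 120 and 340 h against 24 h), 0.31 (120 h against 60 h), 0.17 (340 h against 120 h), 0.24 (12 h against 1 h) and -0.20 (24 h against 12 h). Change centring gave 0.16 and 0.29 (120 and 340 h against 24 h), 0.23 (120 h against 60 h), 0.13 (340 h against 120 h) and -0.27 (12 h against 1 h). Array-median centring gave 0.12 at 340 h against both earlier times and 0.10 for 12 h against 1 h. TAF10 itself changed by -1.60 at 340 h against 24 h. The share of calls that were higher, reported at 60.3%, 52.1%, 50% and 43.5% against 24 h, was 88.5%, 72.2%, 81.9% and 77.1% under level centring, and 62.5% and 57.8% under change centring at 120 h and 340 h. For 120 h against 60 h it was 48.1%, then 91.4% and 84.4%. For 340 h against 120 h it was 37.4%, then 55.1%, 49.9% and, on array medians, 48.4%. For 12 h against 1 h it was 43.4%, then 58.5% and 29.0%, and for 24 h against 12 h 38.5%, then 3.88% under level centring.

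All-gene counts moved by over 1.5 times at 24 h against 12 h, from 117 to 57 under change centring, 185 with the replicate block, 0 with only the arrays of those times, and 22 to 110 over arrays left out (lowest without 24 h replicate 2). At 60 h against 48 h 457 became 291 under level centring and 189 to 316 over arrays left out. At 120 h against 60 h 540 became 857 under level centring and 312 to 462 over arrays left out. The causes were not tested.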
